A study of Homo sapiens and Mus musculus with 36 samples.

Results

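The genes described here are 34 liver-made blood protein genes, chosen by symbol: 20 of the coagulation system and 14 of the complement system. Rows for 33 of them, 19 coagulation and 14 complement genes, were found among the 26792 gene symbols of 10 tables that set treated HepG2 or Huh7 cells against their controls. The remaining coagulation gene had no row in any of the 10 tables and was not analysed here. HepG2 and Huh7 are human liver cancer cell lines that keep many hepatocyte genes active. HepG2 cells were given MS7126, C24, MS7126N1 or MS7126N2 at 5 uM for 48 h and set against DMSO. MS7126 is a PROTAC against EZH2, that is, a molecule built to bring its target protein to the cell's degradation machinery, and EZH2 is the histone methyltransferase of a Polycomb complex. C24 is the matched inhibitor of the catalytic SET domain, and MS7126N1 and MS7126N2 are non-PROTAC analogs. Huh7 cells were given MS7126 at 5 uM and set against DMSO, for 24 h by 1 label and 48 h by another, so that this time is uncertain. Both lines were also infected with pLKO.1-puro lentivirus and selected with puromycin: shEZH2 against shControl in Huh7, and shEZH2 or 1 of 3 SREBP2 hairpins (#664, #665 and #667) against shControl in HepG2. SREBP2, encoded by SREBF2, is the transcription factor of cholesterol synthesis genes, and the control virus is named both as an empty vector and as a scramble. Each of the 14 groups held 2 libraries, 28 in all. No label says whether the 2 libraries were separate cultures. The p-values therefore cover the spread between 2 libraries, and that spread may be technical.

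In the coagulation cascade, serine proteases activate one another in steps on cofactors until thrombin turns fibrinogen into fibrin, and antithrombin and other serpins hold the proteases in check. In complement, the classical, lectin and alternative routes meet at C3, whose cleavage leads through C5 to the membrane attack complex, while C4b-binding protein and factor I limit it. Hepatocytes make most of these proteins, many of them under liver transcription factors of the HNF and C/EBP families, and several rise in the acute phase response to interleukin 6.

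The depth and labels were as follows. The Huh7 hairpin libraries held 11263288 and 11978920 estimated counts for shEZH2, against 11321536 and 10125407 for shControl. For the other 9 comparisons the authors' deposited tables give a mean normalized count per gene, which summed to between 16686567 and 40979203, and no values per library. EZH2 was at 13.3 and 14.0 CPM in Huh7 shEZH2 libraries, against 82.6 and 89.7 CPM in shControl libraries, a log2 change (the log2 of the fold change over control) of -2.65 (SE 0.08, edgeR adjusted p = 3.03e-13). In HepG2 the libraries labelled shEZH2 had more EZH2 in the authors' deposited table, by 0.90 on the log2 scale (SE 0.38, adjusted p = 0.0337), which goes against that label. The table for #664 gave SREBF2 -1.58 (SE 0.06), that for #665 -1.08 (SE 0.12) and that for #667 -2.35 (SE 0.42), all from the authors' deposited tables. The wide SE of the targeted gene in the tables for shEZH2 and #667 stands beside a median SE of 0.11 and 0.14 for genes at a mean of 100 or more in the same 2 of the authors' deposited tables. The 4 HepG2 hairpin groups share 1 pair of shControl libraries and the 4 HepG2 compound groups share 1 pair of DMSO libraries, so comparisons within each set are not independent. By GENCODE, exons of 12 of the 33 members overlap exons of another gene, 5 of them on the same strand (C1R, C1S, CFB, CFI and KLKB1; CFB with C2), and how such reads were shared is not given in the sources used here. Below, a gene is called when its adjusted p over all genes of a table was under 0.05, and a rebuilt level is a group's mean, computed from the deposited mean and fold change.

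Fibrinogen chains, C3 and SERPINF2 ranked highest among these genes in HepG2 DMSO cells and the fibrinogen chains in Huh7 DMSO cells, on a scale of rebuilt normalized counts per kilobase of the longest coding transcript. In HepG2 DMSO cells, from the authors' deposited table for MS7126, FGG stood at 5279 per kilobase, FGA at 3909.9, C3 at 2634, SERPINF2 at 2539.8 and FGB at 2017, and the lowest of 30 members was C1R at 0.53. In Huh7 DMSO cells, again from the authors' deposited table for MS7126, FGB stood at 30064 per kilobase, FGG at 19402 and FGA at 15185, and the lowest of 32 was KLKB1 at 16.5. The 2 tables were normalized separately, so levels are not compared between the lines. Several members were scarce in HepG2: the authors' deposited table for MS7126 had no row for F13B, PLG or KLKB1, and gave 5 low members (KNG1, C1R, C6, C8B and C8G) no adjusted p.

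**Figure D1:**
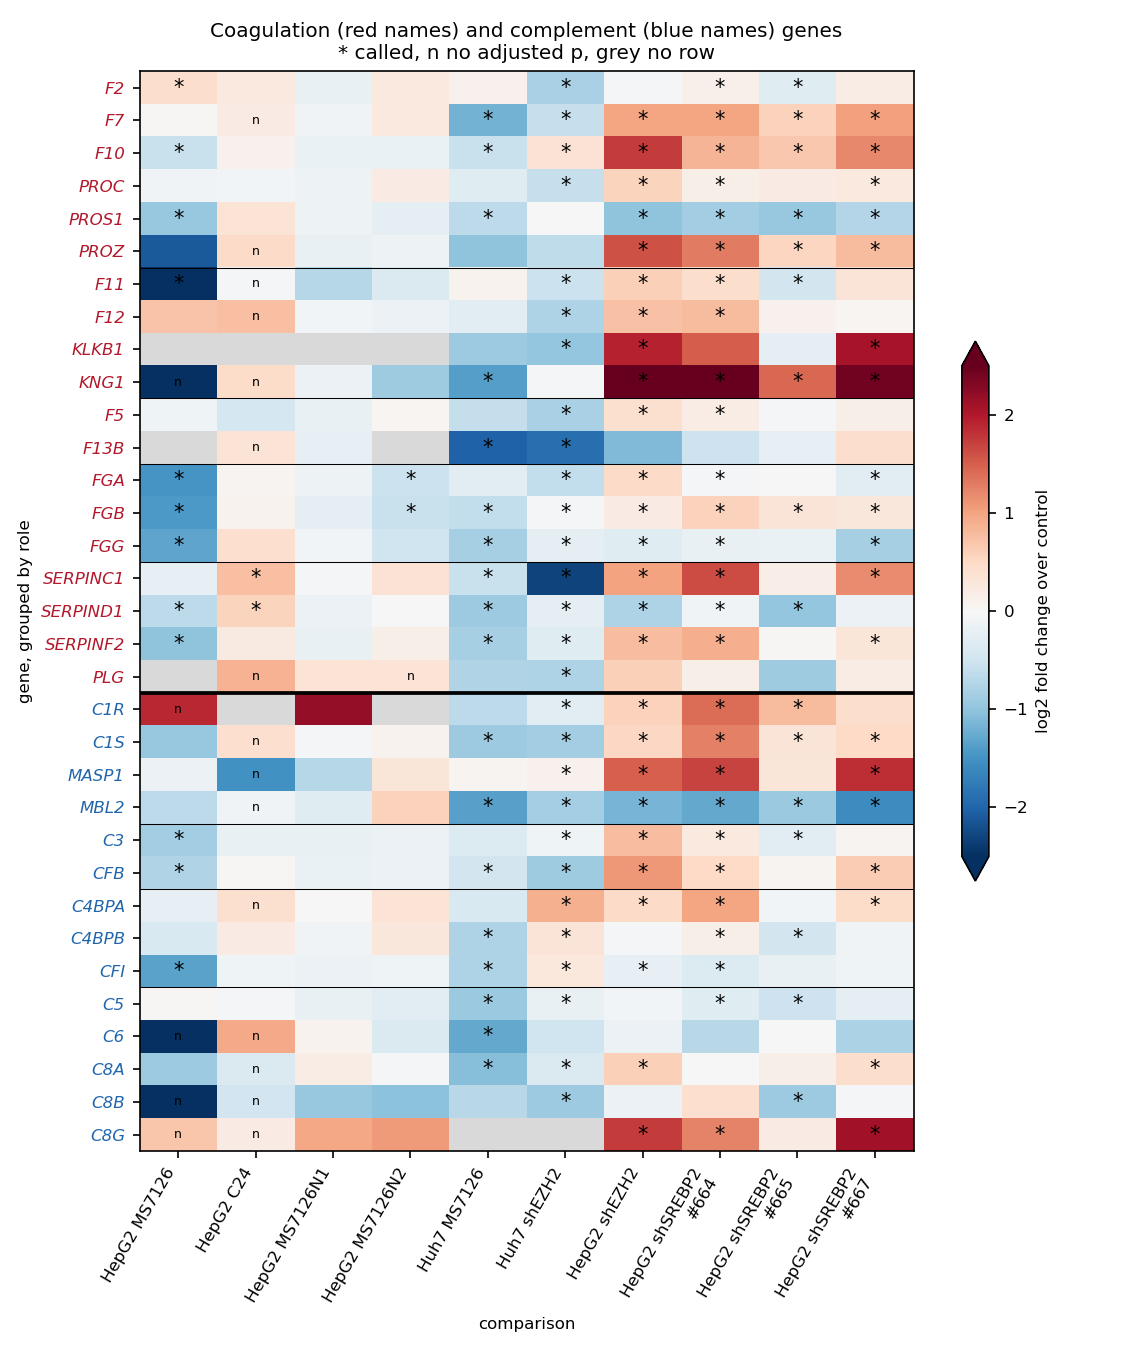
Log2 fold change over control of the 33 genes (rows, grouped by role; coagulation names in red, complement names in blue) in the 10 comparisons (columns), from blue (lower) to red (higher), with the scale limited to 2.5 in either direction. Stars mark calls. The columns of MS7126 in both lines and of Huh7 shEZH2 are mostly blue, and those of the HepG2 libraries labelled shEZH2, #664 and #667 mostly red.

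In HepG2 cells, MS7126 lowered the 3 fibrinogen chains, complement factor I, C3, factor B and several coagulation genes. By the authors' deposited table, 11 of 25 tested members were called lower and 1 higher, where 8.06% of all tested genes were called lower and 7.44% higher. Among coagulation genes 8 of 15 were lower and 1 higher, and among complement genes 3 of 10 were lower and none higher. The median log2 fold change was -0.66 for coagulation and -0.70 for complement members in the authors' deposited table, against 0.01 over all tested genes. In bulk RNA, fewer expressing cells and less RNA per cell cannot be told apart.

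Fibrinogen is a hexamer of alpha, beta and gamma chains, encoded by FGA, FGB and FGG, which lie next to each other at chr4:154583126-154590766 (minus strand), chr4:154562956-154571086 (plus strand) and chr4:154604134-154612967 (minus strand) (GRCh38, GENCODE). FGA stood at 5140.2 normalized counts with MS7126, against 14381 with DMSO, in the authors' deposited table, a log2 change of -1.48 (SE 0.12, adjusted p = 7.75e-34). FGB stood at 1477 normalized counts with MS7126, against 3983 with DMSO, in the authors' deposited table, a log2 change of -1.43 (SE 0.15, adjusted p = 3.68e-20). FGG stood at 3708 normalized counts with MS7126, against 9292 with DMSO, in the authors' deposited table, a log2 change of -1.33 (SE 0.18, adjusted p = 1.21e-11). The 3 chains thus lay at 35.7, 37.1 and 39.9 percent of their DMSO level, in the order alpha, beta, gamma. Their promoters are shown here because these chains moved together, from 250 bases before to 50 after the transcript start (RefSeq, GRCh38.p14). Capitals mark matches to any of 5 motifs of liver and acute phase factors, searched on both strands: an HNF1 half-site GTTAATNAT, C/EBP TTGCNNAA, STAT3 TTCNNNGAA, HNF4 CAAAGTCCA and an ATF4 composite TGATGNAA.
FGA, chr4:154590693-154590992, minus strand: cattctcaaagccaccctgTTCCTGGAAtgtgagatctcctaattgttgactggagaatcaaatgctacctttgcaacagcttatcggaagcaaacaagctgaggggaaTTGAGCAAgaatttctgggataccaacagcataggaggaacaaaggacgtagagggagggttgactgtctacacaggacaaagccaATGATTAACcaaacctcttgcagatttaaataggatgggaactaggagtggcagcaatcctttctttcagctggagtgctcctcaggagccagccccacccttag
FGB, chr4:154562730-154563029, plus strand: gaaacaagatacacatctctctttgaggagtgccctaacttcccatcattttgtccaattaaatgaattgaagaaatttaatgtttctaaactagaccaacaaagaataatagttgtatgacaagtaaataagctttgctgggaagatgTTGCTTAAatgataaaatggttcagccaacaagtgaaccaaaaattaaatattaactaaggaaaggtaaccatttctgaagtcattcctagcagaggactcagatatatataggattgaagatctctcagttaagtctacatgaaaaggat
FGG, chr4:154612607-154612906, minus strand: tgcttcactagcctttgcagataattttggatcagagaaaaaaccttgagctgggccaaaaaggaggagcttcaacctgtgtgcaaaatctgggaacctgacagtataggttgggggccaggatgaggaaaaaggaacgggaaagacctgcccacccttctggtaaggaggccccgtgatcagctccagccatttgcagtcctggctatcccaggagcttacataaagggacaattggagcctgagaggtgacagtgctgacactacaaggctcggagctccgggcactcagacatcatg
The FGA window holds a STAT3 match 231 bases before the start, a C/EBP match 141 before and an HNF1 half-site 55 before, counted to the first base of each match and with the last 2 on the opposite strand. The FGB window holds a C/EBP match 101 bases before the start, and the FGG window holds none of the 5. Over 35116 promoters of the same length, 0.792% hold the HNF1 half-site, 10.5% the C/EBP motif, 7.66% the STAT3 motif, 0.384% the HNF4 motif and 3.62% the ATF4 composite. Of 28 members with a promoter entry, the HNF1 half-site was found in 4 (F13B, FGA, PLG and C4BPA), C/EBP in 7, STAT3 in 7, HNF4 in 2 (F10 and PROZ) and the ATF4 composite in 1. A match of letters is a description, and nothing about binding follows from it or from its absence.

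The vitamin K-dependent proteins, proteases and cofactors that need gamma-carboxylation to bind membranes, did not move as 1 group. F10, the protease that makes thrombin, stood at 1116 normalized counts with MS7126, against 1631 with DMSO, in the authors' deposited table, a log2 change of -0.55 (SE 0.15, adjusted p = 0.00423). PROS1, which encodes protein S, a cofactor of activated protein C, stood at 214 normalized counts with MS7126, against 412 with DMSO, in the authors' deposited table, a log2 change of -0.95 (SE 0.33, adjusted p = 0.0342). F2, which encodes prothrombin, went the other way, with 5083 normalized counts with MS7126, against 3726 with DMSO, in the authors' deposited table, a log2 change of 0.45 (SE 0.14, adjusted p = 0.0102). It was the 1 member called higher. F7 at 0.03 (SE 0.38), PROC at -0.08 (SE 0.18) and PROZ at -2.10 (SE 0.89) were not called in the authors' deposited table.

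Of the contact phase, the surface-triggered start of clotting, F11 was called. F11 stood at 15.9 normalized counts with MS7126, against 90.5 with DMSO, in the authors' deposited table, a log2 change of -2.51 (SE 0.69, adjusted p = 0.00357), with a wide error at a low level. KNG1, which encodes kininogen, had a log2 change of -2.61 (SE 0.95) in the authors' deposited table and no adjusted p, and F12 had 0.71 (SE 0.64) and was not called. The inhibitors of proteases moved unevenly. SERPINF2, the plasmin inhibitor alpha-2-antiplasmin, stood at 2892 normalized counts with MS7126, against 5801 with DMSO, in the authors' deposited table, a log2 change of -1.004 (SE 0.12, adjusted p = 8.58e-15). SERPIND1, heparin cofactor II, stood at 1209 normalized counts with MS7126, against 1904 with DMSO, in the authors' deposited table, a log2 change of -0.66 (SE 0.17, adjusted p = 0.00213). SERPINC1, which encodes antithrombin, had -0.21 (SE 0.22) and the cofactor gene F5 had -0.10 (SE 0.21) in the authors' deposited table, neither called.

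Among complement genes, the calls fell on both central components and on 1 regulator. CFI, which encodes the protease that inactivates C3b and C4b, stood at 628 normalized counts with MS7126, against 1596 with DMSO, in the authors' deposited table, a log2 change of -1.35 (SE 0.20, adjusted p = 4.15e-10). C3 stood at 7589 normalized counts with MS7126, against 13865 with DMSO, in the authors' deposited table, a log2 change of -0.87 (SE 0.14, adjusted p = 4.2e-08). CFB, the protease of the alternative route, stood at 637 normalized counts with MS7126, against 1074 with DMSO, in the authors' deposited table, a log2 change of -0.75 (SE 0.19, adjusted p = 0.000985). No initiation or terminal component was called. C1S at -0.94 (SE 0.40), MBL2 at -0.65 (SE 0.69), C8A at -0.91 (SE 0.79) and C5 at 0.02 (SE 0.20) were not called in the authors' deposited table, and C6 at -3.08 (SE 1.30) and C8B at -3.13 (SE 1.07) had no adjusted p. The remaining members lay between -0.38 (SE 0.25) for C4BPB and 1.88 (SE 2.45) for C1R in the authors' deposited table, with MASP1 at -0.15 (SE 0.72), C4BPA at -0.21 (SE 0.39) and C8G at 0.69 (SE 1.08), and none was called.

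The 12 marker genes of hepatocytes and hepatoma cells moved beside these genes. By the authors' deposited table, 6 of 12 were called lower and 2 higher, and their summed rebuilt level was 195449.5 normalized counts with MS7126, against 318472 with DMSO. HP, which encodes haptoglobin, had a log2 change of -3.62 (SE 0.16) in the authors' deposited table, followed by APOA1 at -1.87 (SE 0.12), ALB at -0.97 (SE 0.13) and TTR at -0.88 (SE 0.14) in the order of their adjusted p. The 2 markers called higher were AHSG at 0.59 (SE 0.16) and AMBP at 0.51 (SE 0.15) in the authors' deposited table. The part of these marker changes in the fall of the coagulation and complement genes was not tested.

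The other 3 compounds were given at the same dose for the same time and set against the same DMSO libraries. Most of these genes were not called with them, as was true over all genes. Only 16 of 31 members with a row had an adjusted p with C24 in the authors' deposited table, none of them contact phase or initiation genes. With C24, the authors' deposited table called 2 of 16 tested members higher and 0 lower (5 higher and 1 lower at an unadjusted p under 0.05), where 3.01% of all genes were called higher and 4.01% lower. SERPINC1 stood at 916 normalized counts with C24, against 544 with DMSO, in the authors' deposited table, a log2 change of 0.75 (SE 0.17, adjusted p = 0.00095). SERPIND1 stood at 2826 normalized counts with C24, against 1925 with DMSO, in the authors' deposited table, a log2 change of 0.55 (SE 0.11, adjusted p = 7.04e-05). These 2 serpins both inhibit thrombin and both use heparin as a cofactor. Fibrinogen was not called with C24: the authors' deposited table gave FGA 0.08 (SE 0.08), FGB 0.08 (SE 0.09) and FGG 0.42 (SE 0.15). With MS7126N1, the authors' deposited table called 0 of 32 members, none of which had an unadjusted p under 0.05, where 0.0744% of all genes were called higher and 0.085% lower. With MS7126N2, the authors' deposited table called 2 of 29 members lower and 0 higher (3 lower and 0 higher at an unadjusted p under 0.05), where 0.341% of all genes were called lower and 0.362% higher. The 2 were fibrinogen chains: FGA stood at 9569.8 normalized counts with MS7126N2, against 13793 with DMSO, a log2 change of -0.53 (SE 0.12, adjusted p = 0.00588) in the authors' deposited table. FGB stood at 2687 normalized counts with MS7126N2, against 3942 with DMSO, a log2 change of -0.55 (SE 0.15, adjusted p = 0.0271) in the authors' deposited table. FGG had -0.50 (SE 0.17, adjusted p = 0.284) there and was not called in the authors' deposited table.

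Differences between MS7126 and each other compound were tested in 3 pairs, as the difference of the deposited log2 fold changes over the root of their summed squared SEs, with a normal test adjusted over all genes of the pair. Against C24, 11 of 29 members were lower with MS7126 and 0 higher (17 and 0 at an unadjusted p under 0.05), where 2.84% of all genes were lower and 1.87% higher. They comprised 8 of 16 coagulation and 3 of 13 complement genes. By this normal test FGA differed by -1.56 (SE 0.14, 95% interval -1.84 to -1.28, adjusted p = 1.49e-24) and FGG by -1.74 (SE 0.23, 95% interval -2.20 to -1.29, adjusted p = 1.12e-11). SERPIND1 differed by -1.21 (SE 0.21, 95% interval -1.61 to -0.81, adjusted p = 4.94e-07) and CFI by -1.25 (SE 0.23, 95% interval -1.70 to -0.80, adjusted p = 5.72e-06) by the normal test. The others were FGB, SERPINF2, SERPINC1, F10, PROS1, C3 and CFB, from -1.51 for FGB to -0.65 for F10. Against MS7126N1, 5 of 30 members were lower (8 with the covariance of the shared DMSO libraries, estimated from the smaller variance) and 1 higher, where 1.93% of all genes were lower and 1.32% higher. The 5 were the 3 fibrinogen chains, SERPINF2 and CFI, with FGA at -1.36 (SE 0.16, 95% interval -1.68 to -1.05, adjusted p = 3.97e-14) by the normal test. F2 was higher with MS7126 than with MS7126N1 by 0.62 (SE 0.19, 95% interval 0.25 to 1.00, adjusted p = 0.0405), by the same normal test. Against MS7126N2, 4 of 29 members were lower (9 with that covariance) and 0 higher (10 and 0 at an unadjusted p under 0.05), where 0.909% of all genes were lower and 0.443% higher. These were FGA at -0.96 (SE 0.17, 95% interval -1.29 to -0.62, adjusted p = 9.18e-06), and FGB, SERPINF2 and CFI, by the normal test. CFI differed by -1.24 (SE 0.26, 95% interval -1.75 to -0.74, adjusted p = 0.000379) and FGG, not called, by -0.83 (SE 0.25, 95% interval -1.31 to -0.34, adjusted p = 0.0619) by the normal test. Most other differences were not called, and their intervals were wide: for SERPINC1 against MS7126N2 the difference was -0.57 (SE 0.31, 95% interval -1.17 to 0.04, adjusted p = 0.87) by the normal test. Without that covariance, 4 members (FGA, FGB, SERPINF2 and CFI) were lower with MS7126 than with each of the other 3 compounds, and with it 8, which added FGG, SERPIND1, C3 and CFB.

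**Figure D2:**
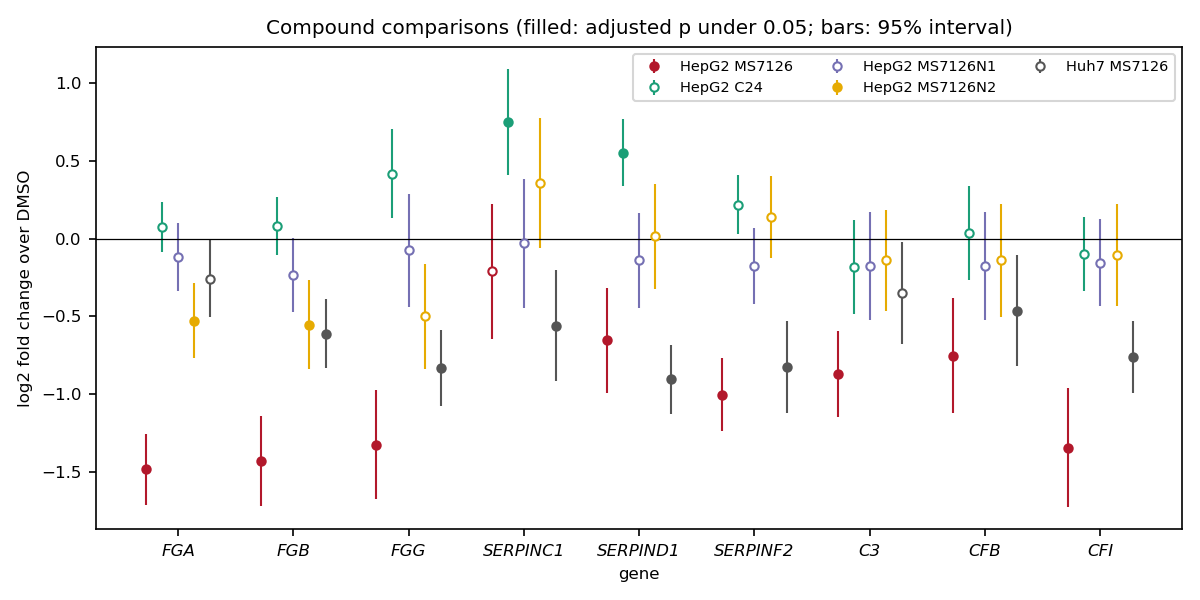
Log2 fold change over DMSO (vertical axis) of 9 genes (horizontal axis) with MS7126, C24, MS7126N1 and MS7126N2 in HepG2 and with MS7126 in Huh7, from the authors' deposited tables. Filled points are called and bars are 95% intervals. For the 3 fibrinogen genes MS7126 in HepG2 lies lowest, between -1.33 and -1.48, and MS7126N2 lies between it and zero, at -0.50 to -0.55.

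In Huh7 cells, MS7126 lowered genes of both systems, from kininogen and factor VII to C5 and mannose-binding lectin, and no member was called higher. By the authors' deposited table, 18 of 32 tested members were called lower and 0 higher (0 higher also at an unadjusted p under 0.05), where 16.3% of all genes were called lower and 17.5% higher. Among coagulation genes 10 of 19 were lower, and among complement genes 8 of 13. The median log2 fold change was -0.66 for coagulation and -0.76 for complement members in the authors' deposited table, against -0.01 over all genes. EZH2 itself had -0.46 (SE 0.13, adjusted p = 0.00194) in that one of the authors' deposited tables. In HepG2, by the authors' deposited tables, EZH2 was not called with any of the compounds. It had -0.29 (SE 0.27) with MS7126, -0.28 (SE 0.26) with C24, -0.30 (SE 0.31) with MS7126N1 and -0.25 (SE 0.28) with MS7126N2. These are RNA values, and EZH2 protein was not analysed here.

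F13B, which encodes the carrier subunit of the fibrin-crosslinking factor XIII, stood at 28.6 normalized counts with MS7126, against 117 with DMSO, in the authors' deposited table, a log2 change of -2.03 (SE 0.48, adjusted p = 0.000162). KNG1 stood at 253 normalized counts with MS7126, against 658 with DMSO, in the authors' deposited table, a log2 change of -1.38 (SE 0.20, adjusted p = 3.27e-10). MBL2, the lectin that starts the lectin route, stood at 61.5 normalized counts with MS7126, against 159 with DMSO, in the authors' deposited table, a log2 change of -1.37 (SE 0.39, adjusted p = 0.00242). These 3 had the lowest fold changes among called members. F7, the protease that tissue factor activates, had -1.18 (SE 0.19, adjusted p = 1.33e-08) in the authors' deposited table. F10 had -0.56 (SE 0.14) and PROS1 -0.66 (SE 0.12) in the authors' deposited table, both called lower. F2 at 0.11 (SE 0.13), PROC at -0.30 (SE 0.16) and PROZ at -1.01 (SE 0.58) were not called in the authors' deposited table, so that 3 of 6 vitamin K-dependent genes were lower. Of the fibrinogen chains, FGG and FGB were called lower. FGG stood at 19180.4 normalized counts with MS7126, against 34147 with DMSO, in the authors' deposited table, a log2 change of -0.83 (SE 0.13, adjusted p = 6.53e-10). FGB had -0.61 (SE 0.11, adjusted p = 1.03e-06) and FGA -0.26 (SE 0.13, adjusted p = 0.102) in the authors' deposited table, and FGA was not called. The 3 serpins were all lower. SERPIND1 had -0.91 (SE 0.11), SERPINF2 -0.83 (SE 0.15) and SERPINC1 -0.56 (SE 0.18) in the authors' deposited table. Not called in the authors' deposited table were F11 at 0.08 (SE 0.39), F12 at -0.28 (SE 0.17), KLKB1 at -0.90 (SE 0.68), F5 at -0.59 (SE 0.29) and PLG at -0.75 (SE 0.45).

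The complement calls in Huh7 reached every role. C5, from which the terminal pathway starts, stood at 4429.8 normalized counts with MS7126, against 8401 with DMSO, in the authors' deposited table, a log2 change of -0.92 (SE 0.11, adjusted p = 7.72e-15). Of the other terminal components, C6 had -1.28 (SE 0.34) and C8A -1.07 (SE 0.39), both called, and C8B -0.68 (SE 0.59), not called, in the authors' deposited table. C1S, a protease of the C1 complex, stood at 503 normalized counts with MS7126, against 944 with DMSO, in the authors' deposited table, a log2 change of -0.91 (SE 0.20, adjusted p = 2.91e-05). Of the regulators, CFI had -0.76 (SE 0.12) and C4BPB -0.77 (SE 0.25), both called lower in the authors' deposited table. CFB had -0.46 (SE 0.18, adjusted p = 0.0357), while C3 had -0.35 (SE 0.17, adjusted p = 0.0923) and was not called in the authors' deposited table. C1R at -0.65 (SE 0.69), MASP1 at 0.07 (SE 0.18) and C4BPA at -0.38 (SE 0.49) were not called in the authors' deposited table either. Beside these, 10 of the 12 hepatocyte and hepatoma markers were lower and 0 higher, and their summed rebuilt level was 425835 normalized counts with MS7126, against 715908 with DMSO, by the authors' deposited table, and their part was not tested.

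The response to MS7126 was set between the lines by the same test of differences, although the times differ by 1 label and cannot be told apart from the line. Of 29 members with values in both, 3 were lower and 1 higher in HepG2 than in Huh7, where 2.65% of all genes were lower and 3.06% higher. FGA differed by -1.23 (SE 0.17, 95% interval -1.56 to -0.89, adjusted p = 4.49e-10) and FGB by -0.82 (SE 0.19, 95% interval -1.19 to -0.46, adjusted p = 0.000712), HepG2 minus Huh7, by the normal test. F11 differed by -2.59 (SE 0.79, 95% interval -4.14 to -1.03, adjusted p = 0.0253) by the normal test: its fold change in the authors' deposited table was -2.51 in HepG2 and 0.08 in Huh7. C5 differed by 0.95 (SE 0.23, 95% interval 0.50 to 1.39, adjusted p = 0.00186) by the normal test, with a fold change of 0.02 in HepG2 and -0.92 in Huh7 in the authors' deposited tables. SERPINF2, called lower in both lines, differed by -0.18 (SE 0.19, 95% interval -0.56 to 0.20, adjusted p = 0.813) by the normal test. Members called lower in both lines were F10, PROS1, FGB, FGG, SERPIND1, SERPINF2, CFB and CFI, 8 of the 11 lower in HepG2 and 8 of the 18 lower in Huh7. The share of all genes called lower in both lines was not computed. Since 18 of 32 tested members were lower in Huh7 alone, nothing is read from this overlap.

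**Figure D3:**
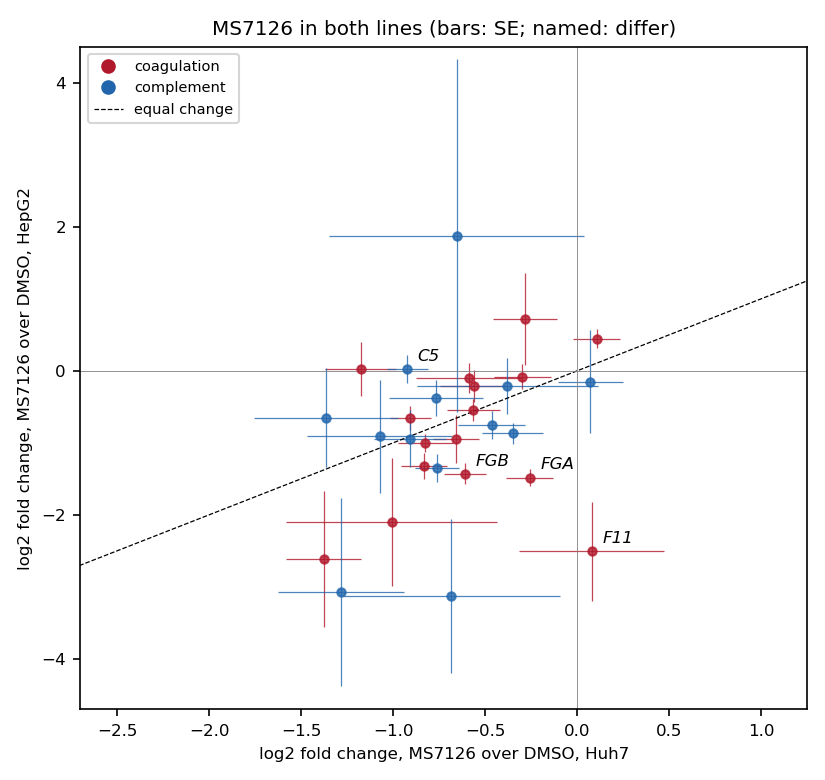
Log2 fold change with MS7126 over DMSO in HepG2 (vertical axis) and in Huh7 (horizontal axis) for 29 genes with values in both of the authors' deposited tables, coagulation in red and complement in blue, with SE bars and a dashed line of equal change. F11, FGA, FGB and C5, named, differed by the normal test.

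The EZH2 hairpin in Huh7 is the 1 comparison with values per library, and there coagulation genes were mostly lower while 3 complement regulators (C4BPA, C4BPB and CFI) were higher. By edgeR, 23 of 32 tested members were called lower and 5 higher, where 19.3% of all genes were called lower and 19.5% higher. Among coagulation genes 15 of 19 were lower and 1 higher, and among complement genes 8 of 13 were lower and 4 higher. The median log2 fold change by edgeR was -0.59 for coagulation and -0.26 for complement members, against 0.00 over all genes. Values per library are CPM (library-size scaled counts) after TMM normalization. The CPM of the 2 groups did not overlap for 30 of 32 members (KNG1 and PROZ, not called, among them), where 68.6% of all genes did not overlap, so nothing is read from that alone.

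SERPINC1, antithrombin, at chr1:173903804-173917378 (minus strand), had 12.8 and 13.4 CPM in shEZH2 libraries, against 66 and 65.2 CPM in shControl libraries, about 20% of control. Its log2 fold change was -2.32 (SE 0.08, edgeR adjusted p = 1.43e-12), the lowest among these genes in this comparison, and the groups were far apart. F13B had 2.12 and 2.58 CPM in shEZH2 libraries, against 7.22 and 10.4 CPM in shControl libraries, a log2 change of -1.89 (SE 0.24, edgeR adjusted p = 1.02e-05). Both F13B groups vary more between their 2 libraries, at a low level, and do not overlap. The other inhibitors moved less: SERPINF2 had 143 and 146 CPM in shEZH2 libraries, against 177 and 179 CPM in shControl libraries, with -0.30 (SE 0.04, edgeR adjusted p = 6.07e-06). SERPIND1 had 117 and 111 CPM in shEZH2 libraries, against 131 and 136 CPM in shControl libraries, with -0.22 (SE 0.04, edgeR adjusted p = 0.000598). PLG, the precursor of the fibrin-dissolving protease plasmin, had 5.64 and 5.66 CPM in shEZH2 libraries, against 10.5 and 8.69 CPM in shControl libraries, with -0.77 (SE 0.17, edgeR adjusted p = 0.00161). Antithrombin and all 3 of these were called lower.

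The vitamin K-dependent genes split. F2 had 81.8 and 89.6 CPM in shEZH2 libraries, against 153 and 149 CPM in shControl libraries, with -0.81 (SE 0.05, edgeR adjusted p = 1.27e-09). F7 had 22 and 18.7 CPM in shEZH2 libraries, against 31.6 and 29 CPM in shControl libraries, with -0.58 (SE 0.09, edgeR adjusted p = 0.000137). PROC, which encodes the anticoagulant protease protein C, had 41.4 and 37.7 CPM in shEZH2 libraries, against 60 and 58.4 CPM in shControl libraries, with -0.59 (SE 0.06, edgeR adjusted p = 2.49e-06). In these 3 genes both shEZH2 libraries lay below both shControl libraries. F10 lay above instead, with 65.3 and 66.8 CPM in shEZH2 libraries, against 51.9 and 51.3 CPM in shControl libraries and 0.36 (SE 0.06, edgeR adjusted p = 8.37e-05). F10 is the 1 coagulation member called higher here, and its neighbours on chromosome 13, F7 and PROZ, were lower and not called in that order. PROS1 had 238 and 236 CPM in shEZH2 libraries, against 239 and 231 CPM in shControl libraries, with overlapping groups and 0.01 (SE 0.03, edgeR adjusted p = 0.854). PROZ had 1.94 and 1.58 CPM in shEZH2 libraries, against 3.39 and 2 CPM in shControl libraries, with -0.63 (SE 0.35, edgeR adjusted p = 0.18), and was not called.

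The contact phase and the cofactor gene F5 were lower except for KNG1. F12, which starts the contact phase, had 41.2 and 43 CPM in shEZH2 libraries, against 72.5 and 72.3 CPM in shControl libraries, with -0.78 (SE 0.06, edgeR adjusted p = 2.11e-08). F11 had 7.94 and 7.65 CPM in shEZH2 libraries, against 11.9 and 10.5 CPM in shControl libraries, with -0.53 (SE 0.14, edgeR adjusted p = 0.00671). KLKB1, the gene of prekallikrein, had 2.03 and 1.58 CPM in shEZH2 libraries, against 3.92 and 3.09 CPM in shControl libraries, with -0.96 (SE 0.30, edgeR adjusted p = 0.0195). All 3 were called lower, and KLKB1 was scarce. F5 had 29.7 and 29.5 CPM in shEZH2 libraries, against 49.9 and 54.2 CPM in shControl libraries, with -0.81 (SE 0.07, edgeR adjusted p = 1.69e-07). KNG1 had 96 and 99.7 CPM in shEZH2 libraries, against 99.8 and 102 CPM in shControl libraries, with -0.04 (SE 0.04, edgeR adjusted p = 0.487), and was not called. The fibrinogen chains differed in size of change. FGA had 818 and 799 CPM in shEZH2 libraries, against 1223 and 1269 CPM in shControl libraries, with -0.62 (SE 0.02, edgeR adjusted p = 5.82e-12). FGG had 568 and 564 CPM in shEZH2 libraries, against 661 and 679.7 CPM in shControl libraries, with -0.24 (SE 0.02, edgeR adjusted p = 6.66e-07). FGB had 1141 and 1153 CPM in shEZH2 libraries, against 1199.8 and 1187 CPM in shControl libraries, with -0.06 (SE 0.02, edgeR adjusted p = 0.027). All 3 lay below shControl in both libraries, at 64.9% of control for FGA, 84.5% for FGG and 96.1% for FGB. The FGB call was lost without shEZH2 replicate 1 (edgeR adjusted p = 0.202) or replicate 2 (edgeR adjusted p = 0.101), that of KLKB1 without shControl replicate 1 (edgeR adjusted p = 0.186) or shEZH2 replicate 2 (edgeR adjusted p = 0.117), and that of F11 without shControl replicate 1 (edgeR adjusted p = 0.0701).

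Of the complement genes of initiation, 3 were lower. C1S had 62.4 and 55.3 CPM in shEZH2 libraries, against 107 and 107 CPM in shControl libraries, with -0.86 (SE 0.06, edgeR adjusted p = 4.86e-09). C1R, its partner and neighbour on chromosome 12, had 40.4 and 39.7 CPM in shEZH2 libraries, against 47.8 and 47.8 CPM in shControl libraries, with -0.26 (SE 0.06, edgeR adjusted p = 0.00419), a call lost with DESeq2 (adjusted p = 0.0628). MBL2 had 6.52 and 3.99 CPM in shEZH2 libraries, against 8.56 and 10.4 CPM in shControl libraries, with -0.85 (SE 0.21, edgeR adjusted p = 0.00376). These 3 were lower in both shEZH2 libraries. MASP1, a protease of the lectin route, had 141 and 146 CPM in shEZH2 libraries, against 131 and 136 CPM in shControl libraries, with 0.11 (SE 0.04, edgeR adjusted p = 0.0463), and its call was lost without any 1 library (edgeR adjusted p = 0.0502 to 0.264) and with DESeq2 (adjusted p = 0.264). The central components were both lower, CFB far more than C3. CFB had 68 and 78 CPM in shEZH2 libraries, against 126 and 145 CPM in shControl libraries, with -0.88 (SE 0.07, edgeR adjusted p = 3.43e-08). C3 had 2922 and 2955 CPM in shEZH2 libraries, against 3143 and 3166 CPM in shControl libraries, with -0.10 (SE 0.02, edgeR adjusted p = 7.03e-05). Both groups were tight in C3, so that a small difference passed the test. The terminal components were lower or uncalled. C5 had 591 and 573 CPM in shEZH2 libraries, against 671 and 659.6 CPM in shControl libraries, with -0.19 (SE 0.02, edgeR adjusted p = 1.02e-05). C8B had 3.88 and 2.83 CPM in shEZH2 libraries, against 6.06 and 6.59 CPM in shControl libraries, with -0.92 (SE 0.22, edgeR adjusted p = 0.00365). C8A had 8.11 and 8.98 CPM in shEZH2 libraries, against 11.2 and 10.8 CPM in shControl libraries, with -0.36 (SE 0.14, edgeR adjusted p = 0.0435). C8A and C8B, neighbours on chromosome 1, were both scarce, and the C8A call was lost without either shControl library or shEZH2 replicate 1 (edgeR adjusted p = 0.0784 to 0.173). C6 had 3.35 and 5.66 CPM in shEZH2 libraries, against 7.31 and 5.39 CPM in shControl libraries, with overlapping groups and -0.50 (SE 0.24, edgeR adjusted p = 0.121).

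The 3 regulators were all higher with shEZH2. C4BPA, the alpha chain of C4b-binding protein, had 33.6 and 34.6 CPM in shEZH2 libraries, against 17.8 and 19.3 CPM in shControl libraries, 184% of control, with 0.88 (SE 0.08, edgeR adjusted p = 5.26e-07). C4BPB, its beta chain, which binds protein S, had 41 and 41.5 CPM in shEZH2 libraries, against 32.2 and 33.4 CPM in shControl libraries, with 0.33 (SE 0.07, edgeR adjusted p = 0.0012). CFI had 306 and 289.6 CPM in shEZH2 libraries, against 246 and 251 CPM in shControl libraries, with 0.26 (SE 0.03, edgeR adjusted p = 1.16e-05). C4b-binding protein is a cofactor with which factor I cuts C4b. The 2 C4BP genes lie next to each other, at chr1:207104262-207144972 (plus strand) and chr1:207088842-207099993 (plus strand), and their promoters are shown because these 2 rose while most members fell (RefSeq, GRCh38.p14; same window, motifs and capitals as above).
C4BPA, chr1:207103983-207104282, plus strand: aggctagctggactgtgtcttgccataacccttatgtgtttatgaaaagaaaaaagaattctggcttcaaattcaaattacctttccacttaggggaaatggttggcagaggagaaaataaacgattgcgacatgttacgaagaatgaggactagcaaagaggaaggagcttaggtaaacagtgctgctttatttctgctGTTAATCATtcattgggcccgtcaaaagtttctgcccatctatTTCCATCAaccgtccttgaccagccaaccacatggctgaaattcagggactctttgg
C4BPB, chr1:207088610-207088909, plus strand: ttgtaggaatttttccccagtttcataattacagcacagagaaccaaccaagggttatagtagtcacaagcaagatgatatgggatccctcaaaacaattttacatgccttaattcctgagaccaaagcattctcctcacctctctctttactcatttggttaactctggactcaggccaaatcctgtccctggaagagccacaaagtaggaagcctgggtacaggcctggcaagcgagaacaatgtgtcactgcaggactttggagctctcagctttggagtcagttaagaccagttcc
The C4BPA window holds an HNF1 half-site 50 bases before the start and an ATF4 composite match on the opposite strand 7 before it. The C4BPB window holds none of the 5 motifs. Beside these genes, 7 of the 12 hepatocyte and hepatoma markers were lower and 2 higher by edgeR, with a summed rebuilt level of 303191 normalized counts for shEZH2, against 388151 for shControl, and their part was not tested.

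**Figure D4:**
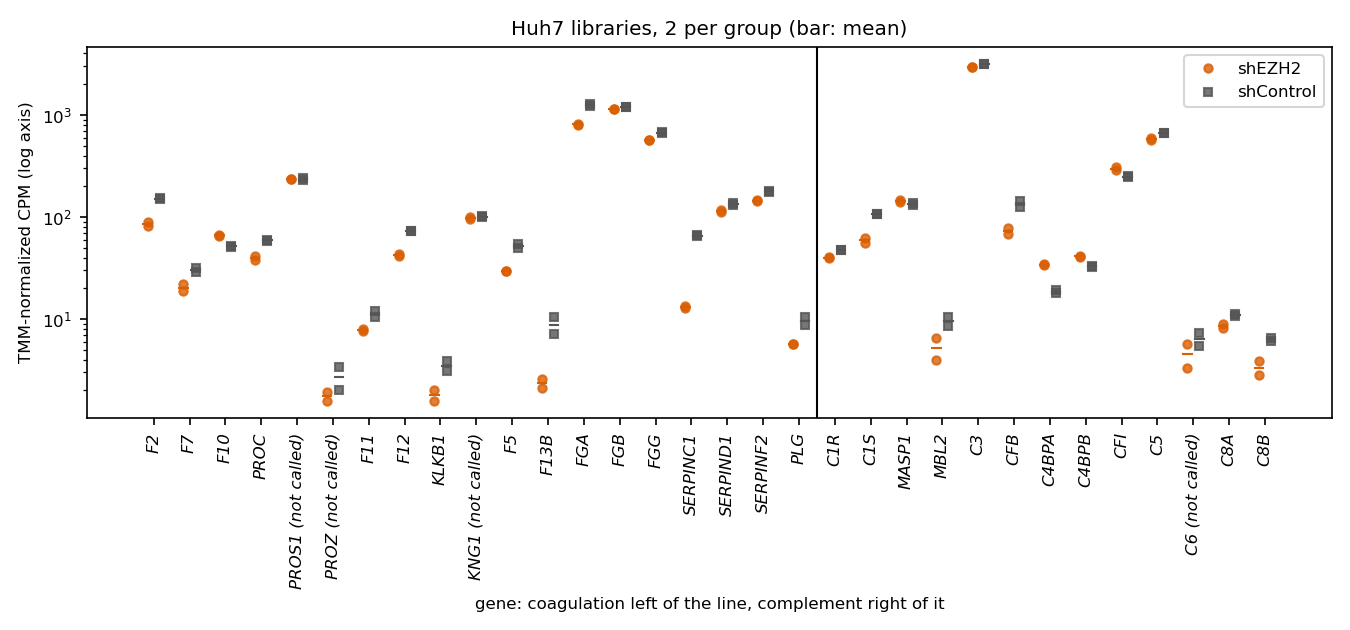
TMM-normalized CPM on a log axis (vertical) of 32 genes (horizontal; coagulation left of the line, complement right of it) in each Huh7 library, shEZH2 as orange circles left of shControl as grey squares, with bars at the means of 2 libraries. SERPINC1 and F13B show the widest gaps, and C4BPA, C4BPB, CFI, F10 and MASP1 lie higher with shEZH2.

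In HepG2, the 4 hairpin comparisons share their shControl libraries, and the values below are therefore given side by side with nothing read from their likeness. For the libraries labelled shEZH2, the authors' deposited table called 21 of 33 members higher and 5 lower, where 28.4% of all genes were called higher and 28.6% lower. For #664, the authors' deposited table called 20 of 33 higher and 7 lower, where 24.9% of all genes were called higher and 26.8% lower. For #665, the authors' deposited table called 7 of 33 higher and 9 lower, where 18.7% of all genes were called higher and 20.0% lower. For #667, the authors' deposited table called 15 of 33 higher and 4 lower, where 18.6% of all genes were called higher and 19.3% lower. The shares of #665 thus lie near those of all genes, lower calls a little above. Coagulation members had medians of 0.59 with the libraries labelled shEZH2, 0.44 with #664, -0.01 with #665 and 0.29 with #667 in the authors' deposited tables. Complement members had 0.50, 0.33, -0.03 and 0.25 in the same order, and all genes tested between 0.00 and 0.01.

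KNG1, kininogen, had the largest fold changes among these genes. It stood at 1375 normalized counts with #664, against 168 with shControl, in the authors' deposited table. Its log2 changes, by the authors' deposited tables, were 2.86 (SE 0.15) with the libraries labelled shEZH2, 3.04 (SE 0.12) with #664, 1.44 (SE 0.20) with #665 and 2.41 (SE 0.18) with #667, all called. The neighbours F7, F10 and PROZ on chromosome 13 were each called higher with all 4 hairpins. F10 had 1.75 (SE 0.04) with the libraries labelled shEZH2, 0.85 (SE 0.04) with #664, 0.68 (SE 0.10) with #665 and 1.20 (SE 0.10) with #667 in the authors' deposited tables. F7 had 0.98 (SE 0.14) with the libraries labelled shEZH2, 0.98 (SE 0.11) with #664, 0.58 (SE 0.16) with #665 and 1.02 (SE 0.15) with #667 in the authors' deposited tables. PROZ, a cofactor in the inhibition of factor Xa, had 1.59 (SE 0.18) with the libraries labelled shEZH2, 1.29 (SE 0.16) with #664, 0.54 (SE 0.22) with #665 and 0.79 (SE 0.22) with #667 in the authors' deposited tables. Protein S and mannose-binding lectin were called lower with all 4. PROS1 had -1.002 (SE 0.09) with the libraries labelled shEZH2, -0.88 (SE 0.07) with #664, -0.94 (SE 0.15) with #665 and -0.73 (SE 0.14) with #667 in the authors' deposited tables. MBL2 had -1.15 (SE 0.22) with the libraries labelled shEZH2, -1.28 (SE 0.18) with #664, -0.93 (SE 0.22) with #665 and -1.57 (SE 0.24) with #667 in the authors' deposited tables.

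Antithrombin was among the genes that set #665 apart in calls. SERPINC1 had 1.00 (SE 0.06) with the libraries labelled shEZH2, 1.63 (SE 0.04) with #664, 0.17 (SE 0.12) with #665 and 1.19 (SE 0.10) with #667 in the authors' deposited tables, called higher with all but #665. SERPINF2 had 0.77 (SE 0.03) with the libraries labelled shEZH2, 0.91 (SE 0.02) with #664, 0.02 (SE 0.08) with #665 and 0.31 (SE 0.09) with #667 in the authors' deposited tables, called higher with the same 3. SERPIND1 had -0.78 (SE 0.05) with the libraries labelled shEZH2, -0.08 (SE 0.03) with #664, -0.97 (SE 0.17) with #665 and -0.14 (SE 0.13) with #667 in the authors' deposited tables, called lower with all but #667. Whether the hairpins differ from each other was not tested. The fibrinogen chains did not move as 1 unit here. FGB had 0.20 (SE 0.04) with the libraries labelled shEZH2, 0.57 (SE 0.02) with #664, 0.31 (SE 0.09) with #665 and 0.29 (SE 0.09) with #667 in the authors' deposited tables, called higher with all 4. FGG had -0.30 (SE 0.03) with the libraries labelled shEZH2, -0.19 (SE 0.02) with #664, -0.16 (SE 0.11) with #665 and -0.82 (SE 0.12) with #667 in the authors' deposited tables, called lower with all but #665. FGA had 0.47 (SE 0.03) with the libraries labelled shEZH2, -0.05 (SE 0.02) with #664, -0.01 (SE 0.10) with #665 and -0.29 (SE 0.09) with #667 in the authors' deposited tables, called higher with the libraries labelled shEZH2 and lower with #664 and #667. FGG thus stood at 26605 normalized counts with #667, against 47073 with shControl, while FGB stood at 21720.2 normalized counts with #667, against 17825 with shControl, in the authors' deposited table.

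Of the other coagulation members, F2, PROC and F11 were called in part of these comparisons. F2 had -0.03 (SE 0.04) with the libraries labelled shEZH2, 0.13 (SE 0.02) with #664, -0.30 (SE 0.11) with #665 and 0.20 (SE 0.09) with #667 in the authors' deposited tables, called higher with #664 and lower with #665. PROC had 0.56 (SE 0.05) with the libraries labelled shEZH2, 0.14 (SE 0.04) with #664, 0.21 (SE 0.11) with #665 and 0.24 (SE 0.10) with #667 in the authors' deposited tables, called higher with all but #665. F11 had 0.59 (SE 0.16) with the libraries labelled shEZH2, 0.44 (SE 0.14) with #664, -0.46 (SE 0.19) with #665 and 0.33 (SE 0.18) with #667 in the authors' deposited tables, called higher with the libraries labelled shEZH2 and #664 and lower with #665. F12 and F5 were called higher with the libraries labelled shEZH2 and #664, and KLKB1, at a low level, with the libraries labelled shEZH2 and #667. F13B and PLG were not called with any of the 4 hairpins in the authors' deposited tables, with fold changes of -1.11 to 0.44 for F13B and -0.89 to 0.59 for PLG.

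Of complement, MASP1, C8G, C1S, C1R, CFB and C4BPA were called higher with 3 or 4 of the 4 hairpins. MASP1 had 1.50 (SE 0.20) with the libraries labelled shEZH2, 1.70 (SE 0.16) with #664, 0.30 (SE 0.25) with #665 and 1.85 (SE 0.20) with #667 in the authors' deposited tables, called higher with all but #665. C8G, the gamma chain of C8, had 1.75 (SE 0.28) with the libraries labelled shEZH2, 1.24 (SE 0.27) with #664, 0.20 (SE 0.38) with #665 and 2.10 (SE 0.27) with #667 in the authors' deposited tables, called higher with all but #665. C1S had 0.52 (SE 0.12) with the libraries labelled shEZH2, 1.25 (SE 0.09) with #664, 0.33 (SE 0.14) with #665 and 0.49 (SE 0.14) with #667 in the authors' deposited tables, called higher with all 4. C1R had 0.58 (SE 0.23) with the libraries labelled shEZH2, 1.40 (SE 0.16) with #664, 0.78 (SE 0.24) with #665 and 0.43 (SE 0.24) with #667 in the authors' deposited tables, called higher with all but #667. CFB had 1.09 (SE 0.04) with the libraries labelled shEZH2, 0.49 (SE 0.03) with #664, 0.08 (SE 0.09) with #665 and 0.63 (SE 0.09) with #667 in the authors' deposited tables, called higher with all but #665. The fluid-phase regulators, C3 and the other terminal components went both ways. C4BPA had 0.48 (SE 0.12) with the libraries labelled shEZH2, 0.99 (SE 0.09) with #664, -0.07 (SE 0.18) with #665 and 0.45 (SE 0.16) with #667 in the authors' deposited tables, called higher with all but #665. CFI had -0.20 (SE 0.05) with the libraries labelled shEZH2, -0.34 (SE 0.04) with #664, -0.18 (SE 0.10) with #665 and -0.11 (SE 0.10) with #667 in the authors' deposited tables, called lower with the libraries labelled shEZH2 and #664. C5 had -0.07 (SE 0.07) with the libraries labelled shEZH2, -0.31 (SE 0.05) with #664, -0.51 (SE 0.11) with #665 and -0.24 (SE 0.11) with #667 in the authors' deposited tables, called lower with #664 and #665. C3 had 0.77 (SE 0.03) with the libraries labelled shEZH2, 0.24 (SE 0.02) with #664, -0.27 (SE 0.09) with #665 and 0.07 (SE 0.10) with #667 in the authors' deposited tables, called higher with the libraries labelled shEZH2 and #664 and lower with #665. C4BPB had -0.05 (SE 0.08) with the libraries labelled shEZH2, 0.14 (SE 0.06) with #664, -0.46 (SE 0.12) with #665 and -0.08 (SE 0.12) with #667 in the authors' deposited tables, called higher with #664 and lower with #665. C8A had 0.59 (SE 0.16) with the libraries labelled shEZH2, 0.01 (SE 0.14) with #664, 0.15 (SE 0.18) with #665 and 0.44 (SE 0.18) with #667 in the authors' deposited tables, called higher with the libraries labelled shEZH2 and #667. C8B was called lower with #665, at -0.91 (SE 0.32) in the authors' deposited table, and C6 was not called with any of the 4, at -0.80 to 0.01 in the authors' deposited tables. The 5.8S ribosomal RNA row was also higher in these 4 of the authors' deposited tables, with log2 fold changes of 2.35, 1.67, 1.56 and 1.65 in the same order. The hepatocyte and hepatoma markers, 12 genes, had 7 higher and 3 lower calls, 8 and 2, 2 and 6, and 6 and 3 in the same order, by the authors' deposited tables. The part of either in the values above was not tested.

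**Figure D5:**
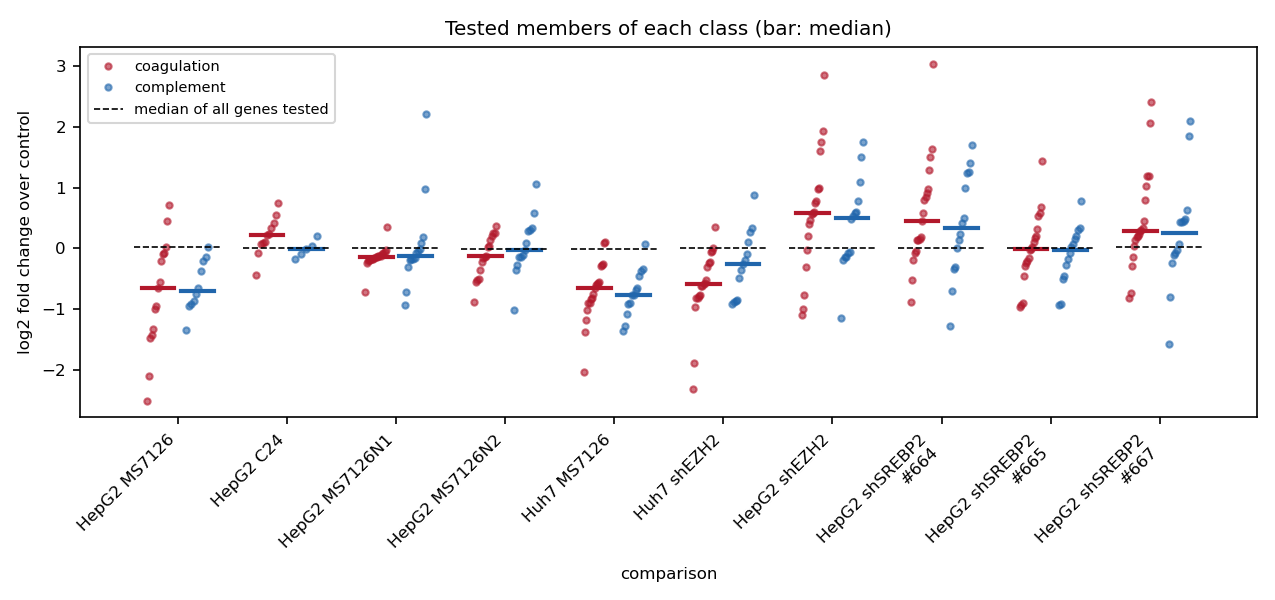
Log2 fold change over control (vertical axis) of each tested gene in the 10 comparisons (horizontal axis), coagulation in red and complement in blue, with bars at the class medians and dashes at the median of all genes tested. Both class medians lie below zero with MS7126 in both lines and in Huh7 shEZH2, and above zero with HepG2 #664, #667 and the libraries labelled shEZH2.

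Across the 10 comparisons, coagulation and complement medians lay within 0.33 of each other on the log2 scale, the widest gap being that of Huh7 shEZH2, and no test of the 2 classes against each other was made. FGB was called in 8 of the 10 comparisons, 4 higher and 4 lower, and F10 and SERPIND1 in 7 each. PROS1, FGG and MBL2 were called in 6 each, lower every time, and C5 in 4, lower every time. PROZ, MASP1 and C4BPA were called in 4 each and C8G in 3, higher every time. PLG and C6 were called in 1 each, C8B and F13B in 2 each, and these 4 were lower in each call. Since comparisons share controls, these counts describe the tables and are not independent repeats. How often other genes were called over the same 10 comparisons was not counted, so nothing is read from these counts. F12, KLKB1 and F5 were called in 3 each, and the remaining members in 4 to 6.

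Other genes of the 2 systems, from lists of their further components, went both ways. Over all genes, 7.44% were called higher and 8.06% lower with MS7126 in HepG2. The shares were 17.5% and 16.3% with MS7126 in Huh7, and 19.5% and 19.3% in Huh7 shEZH2, in the same order. Of other coagulation and fibrinolysis genes, the authors' deposited table called 4 higher and 3 lower of 19 with MS7126 in HepG2, and 5 higher and 9 lower of 22 with MS7126 in Huh7. By edgeR, 8 were higher and 4 lower of 19 in Huh7 shEZH2. Of other complement genes, the authors' deposited table called 2 higher and 5 lower of 17 with MS7126 in HepG2, and 1 higher and 5 lower of 21 with MS7126 in Huh7. By edgeR, 2 were higher and 11 lower of 18 in Huh7 shEZH2, among them SERPING1, the C1 inhibitor, at -0.46 (SE 0.03). This regulator of complement was lower in Huh7 shEZH2 while C4BPA, C4BPB and CFI were higher. Of 16 liver transcription factor genes, the authors' deposited table called 3 higher and 8 lower with MS7126 in Huh7. Among the lower were CEBPA at -0.97 (SE 0.10) and NR1H4, the bile acid receptor, at -1.50 (SE 0.16). The 3 higher were PROX1 at 1.07 (SE 0.18), HNF4G at 0.92 (SE 0.23) and CEBPB at 0.44 (SE 0.15) in the authors' deposited table. By edgeR, 7 of these 16 factor genes were higher and 5 lower in Huh7 shEZH2. In HepG2 with MS7126, the authors' deposited table called 2 higher and 3 lower of 15, with NR1H4 at -1.99 (SE 0.38) and CEBPB at 1.54 (SE 0.15). Of the genes of gamma-carboxylation and factor secretion, by edgeR 4 were higher and 2 lower of 9 in Huh7 shEZH2, with NQO1, a quinone reductase, at 1.90 (SE 0.05) and GGCX, the carboxylase itself, at -0.59 (SE 0.03).

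Markers of other cell types were low for some genes and high for others. Of leukocyte markers, PTPRC had at most 42.3 and CD3E at most 7.60 mean normalized counts in any of the authors' deposited tables, while LYZ had 2382 to 75993 and made up most of that list's sum. Of endothelial markers, CDH5 had at most 30.5 and PECAM1 at most 257 mean normalized counts in any of the authors' deposited tables. Of fibroblast markers, COL1A1 had at most 812, and DCN was not analysed here. Of cholangiocyte markers, KRT7 had at most 18.3 mean normalized counts, while KRT19, EPCAM and SOX9 were well above in the authors' deposited tables. Summed rebuilt levels of the leukocyte list were 5630 normalized counts with MS7126, against 9208 with DMSO, in HepG2, and 2280 with MS7126, against 3256 with DMSO, in Huh7, by the authors' deposited tables. Cholangiocyte markers summed to 9595 normalized counts with MS7126, against 15505 with DMSO, in HepG2, and to 8147 with MS7126, against 4680.5 with DMSO, in Huh7, by the authors' deposited tables. Fibroblast markers summed to 604 normalized counts with MS7126, against 863 with DMSO, in HepG2, and to 441 with MS7126, against 258 with DMSO, in Huh7, by the authors' deposited tables. In Huh7 shEZH2 the rebuilt sums were 830 for shEZH2, against 253 for shControl, for fibroblast markers and 2299.7 for shEZH2, against 1858 for shControl, for cholangiocyte markers. COL1A1 had no row there, and the fibroblast sum held COL1A2, PDGFRA and COL3A1, at means of 307, 215 and 18.6 normalized counts. The leukocyte sum there was 8123 for shEZH2, against 9261 for shControl. Endothelial markers summed to at most 182 normalized counts with MS7126 or shEZH2, against at most 340 in controls, in these 3 comparisons. The part of other cell types in the values above was not tested.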

How the data were processed

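RNA-seq libraries of HepG2 and Huh7 cells were analysed in 14 groups of 2. Per the submitters' processing notes, the tools were STAR 2.4.2, Salmon and the build GRCh38, and a Salmon version is not given. Per the labels' protocols, TruSeq v2 or NEBNext Ultra II kits were used, without saying which for which library, and strand handling is not given in the sources used here. Per the file headers, the deposited tables give a mean normalized signal per gene (a normalized count), a log2 fold change, its standard error, the test's score, the p-value and its adjusted value, laid out as DESeq2 does, and combine the replicates. For Huh7 shEZH2, the authors' deposited estimated counts per library are given too, which need not be whole.

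For 9 comparisons the authors' values were used as deposited. For Huh7 shEZH2 the estimated counts were rounded and tested with edgeR 4.0.16 in R 4.3.3 (quasi-likelihood, TMM, filterByExpr, no block). Of 15228 rows, 20 with dates for symbols were left out, 14581 genes were tested, and the SE is the absolute log2 fold change divided by the square root of F. Pairs of libraries within a group differed beyond counting (chi-square per degree of freedom 1.50 for shEZH2 and 1.58 for shControl), and each was counted as 1 replicate. This cannot show that they were separate cultures. The common coefficient of variation beyond counting that edgeR estimated was small, 0.0187. A group's level was rebuilt from mean and fold change, which matched edgeR's CPM in Huh7 shEZH2 within an interquartile range of 0.000975 (log2). Tables with shared controls gave matching control levels only with signs as deposited (interquartile range 0.00172 between shEZH2 and #664 in HepG2, against 0.950 with the sign turned). The direction of Huh7 MS7126 rests on the series' description. Differences between comparisons used a normal test with Benjamini-Hochberg adjustment over all genes, ignoring the covariance of shared controls. Both the edgeR fit and the test of differences were tried on simulated data with known changes.

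The members and gene lists were chosen with earlier results of these data known. Named were members called in at least 4 of the 10 comparisons, the 3 called members with the largest change each way where the mean reached 10, every called member per library in Huh7 shEZH2, EZH2, SREBF2, and from other lists called genes with the smallest adjusted p. LYZ and the other cell type markers were taken from the marker lists, and the 5.8S rRNA row was named after its values were seen. Promoters are RefSeq's (GRCh38.p14), coordinates and lengths GENCODE 29's. Alternatives tried were DESeq2 1.42.0, the authors' values for Huh7 shEZH2, RLE scaling, no filter on low counts, a replicate block, leaving out each library, centring on the median, adjustment over every row with a p-value, and the covariance of shared DMSO libraries. Some genes of the other lists are not reported here.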

Additional observations from a re-analysis of the deposited data

Results flagged for a closer look

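The 4 members F11, FGA, FGB and C5 answered MS7126 differently in the 2 lines by the test of the difference itself, HepG2 minus Huh7. F11 differed by -2.59, FGA by -1.23, FGB by -0.82 and C5 by 0.95 on the log2 scale, with adjusted p from the normal test of 0.0253 for F11, 4.49e-10 for FGA, 0.000712 for FGB and 0.00186 for C5. Each line was represented by 2 libraries per group, and values per library were not analysed here. One of the labels gives Huh7 another treatment time than HepG2, so line and time cannot be told apart.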

How the results depend on the processing

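Over all the alternatives named among the processing steps, 161 recomputed counts and class medians stayed close to their values and 5 moved. Of the single member calls, 658 kept their side of the threshold, 31 lost it and 0 changed sign. With the covariance of the shared DMSO libraries taken into account, members lower with MS7126 numbered 8 against MS7126N1 (5 without it) and 9 against MS7126N2 (4 without it). In Huh7 shEZH2, members lower numbered 20 to 22 and members higher 4 when 1 library was left out, against 23 and 5 with all libraries, and the coagulation median ranged from -0.65 to -0.50. With 1 library left in a group, it is assumed to vary like the other group. DESeq2 and the authors' deposited table each gave 18 lower and 4 higher there, without F11, KLKB1, FGB, C1R, MASP1 and C8A, with adjusted p from 0.0628 to 0.297 by DESeq2. With the replicate number as a block, 21 were lower and 4 higher, and FGB (edgeR adjusted p = 0.0652), MASP1 (edgeR adjusted p = 0.0664) and C8A (edgeR adjusted p = 0.0513) lost their calls. Same-numbered libraries did not deviate together (correlation -0.0224 over 9627 genes). With 2 libraries per group, this cannot tell whether the number marks a pairing, and no label says that it does. Without the filter on low counts MASP1 was lost (edgeR adjusted p = 0.0550). In the other comparisons C1S with #665 (adjusted p = 0.0537, centred on the median) and PROC with #667 (adjusted p = 0.0564 when centred and 0.0510 over every row, from the deposited tables' values) were lost. The causes were not tested.

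The 9 deposited comparisons give no values per library, so a single library's weight in them was not analysed here. In the HepG2 compound tables, F13B, PLG, C6, C8B and C8G averaged at most 26.8 normalized counts where they had a row, and depth limits what they can show. Each group has only 2 libraries.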

Other observations

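Genes of interleukin 6 and acute phase signalling, which drives fibrinogen and C3 in the liver, had calls of their own. With MS7126 in Huh7 the authors' deposited table called 3 of the 9 tested genes of a list of 10 higher and 2 lower, where 17.5% of all genes were called higher and 16.3% lower. SOCS3, the feedback inhibitor of this signal, had a log2 fold change of 2.60 (SE 0.45), JAK1 1.12 (SE 0.18), STAT3 0.90 (SE 0.12) and the interleukin 1 receptor gene IL1R1 -0.94 (SE 0.22) in the authors' deposited table. With MS7126 in HepG2 the authors' deposited table called 0 of 9 higher and 2 lower, NFKBIA at -1.03 (SE 0.16) and IL1R1 at -1.52 (SE 0.26). Over all genes there, 7.44% were called higher and 8.06% lower. In Huh7 shEZH2, edgeR called 2 of 9 higher and 4 lower, where 19.5% of all genes were called higher and 19.3% lower. The receptor chains IL6ST and IL6R had -1.07 (SE 0.03) and -0.78 (SE 0.11) there, and SOCS3 had 1.20 (SE 0.20). Of the 9 tested genes, 1 was called lower and 0 higher with MS7126N2 in HepG2, where FGA and FGB were lower. That gene was STAT3, whose log2 fold change from the authors' deposited table was -0.88 (SE 0.23). The shares of all genes with MS7126N2 were 0.341% lower and 0.362% higher. STAT3 was not among the 2 genes called with MS7126 in HepG2, where all 3 fibrinogen chains were lower. It was higher with MS7126 in Huh7, where FGB and FGG were lower. The part of this signal in the fibrinogen values was not tested.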
